A study of Homo sapiens with 3 samples.

Results

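Among 21857 cell barcodes from 3 single-cell RNA libraries of a human squamous carcinoma line, 227 shallow barcodes held messenger RNA but none of the abundant nuclear RNA MALAT1 and almost no RNA of the mitochondrial genome. They were chosen by a rule on the counts of unique molecular identifiers (UMIs, each a captured RNA molecule): at least 1000 and under 10000 UMIs, at least 500 genes, 0 UMIs of the long noncoding RNA MALAT1, and genes of the mitochondrial genome (MT- genes) under 0.5% of UMIs. These members were set against comparison barcodes of the same library, with the same limits on UMIs and genes, at least 1 MALAT1 UMI and MT- genes at 2% to 8%. FaDu is a line from a squamous carcinoma of the hypopharynx, and TPF is paclitaxel, cisplatin and 5-fluorouracil. Cinobufotalin is a steroid found in toad venom. A FaDu line made resistant to TPF gave 2 of the 3 libraries: in the resistant TPF cinobufotalin library the cells had received both TPF and cinobufotalin, and in the resistant TPF library TPF without cinobufotalin. The FaDu cinobufotalin library held FaDu cells of no stated resistance that had received cinobufotalin without TPF. No group had a replicate library, and the resistant line came from FaDu alone. No dose or time was used here.

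As background, MALAT1 and NEAT1 are long RNAs that stay in the nucleus, MALAT1 in nuclear speckles and NEAT1 as the scaffold of paraspeckles. Unspliced transcripts, whose bulk is intron in long genes, are nuclear too. Transcripts of the mitochondrial genome stay within the organelle. Messengers for secreted and membrane proteins are translated at the endoplasmic reticulum (ER), to which a hydrophobic stretch near the start of the protein directs the ribosome, whereas messengers of cytosolic proteins are largely translated on free ribosomes.

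There were 81 members among 8888 barcodes of the resistant TPF cinobufotalin library, 94 among 6081 of the resistant TPF library and 52 among 6888 of the FaDu cinobufotalin library. The comparison barcodes numbered 567, 54 and 92 in the same order of libraries. Members were the shallower class, with a median of 3028, 2202.5 and 2809.5 UMIs, against 4650, 6543 and 6654 UMIs in comparison barcodes. The members' summed UMIs were 317832, 319866 and 194830, and those of the comparison barcodes were 2864513, 312961 and 568479. The libraries shared 19, 18 and 12 barcode sequences in their 3 pairings, and no shared barcode was a member.

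The values that chose the members are a description. The median MT- share of members was 0.140% in the resistant TPF cinobufotalin library, 0.0863% in the resistant TPF library and 0.0402% among FaDu cinobufotalin members, against 4.64%, 5.21% and 4.4% in comparison barcodes. No MT- UMI at all was found in 14, 15 and 15 members. The highest MT- share inside the limit was 0.493%, 0.482% and 0.462%, and the lowest outside it, among barcodes without MALAT1, was 0.577%, 0.568% and 0.519%. Comparison barcodes had a median MALAT1 share of 0.697%, 2.89% and 0.947%.

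How many members would lack MALAT1 by counting error depends on the share assumed. MALAT1 chose the members, so the values below are a description and no test. At the median MALAT1 share of barcodes with at least 10000 UMIs, at least 1 MALAT1 UMI and 2% to 8% MT- UMIs (deep barcodes with both), which was 0.788%, 0.831% and 0.154%, counting error would leave 0.0034, 0.0015 and 2.97 members without a MALAT1 UMI. At the median share of the comparison barcodes, which are closer in depth, the expected number in the FaDu cinobufotalin library was 0.000359 members. Both classes had to hold a MALAT1 UMI, and each expected number gives every member the same median share. Shares varied among barcodes: in FaDu cinobufotalin deep barcodes with both the lower quartile was 0.0413%.

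**Figure D1:**
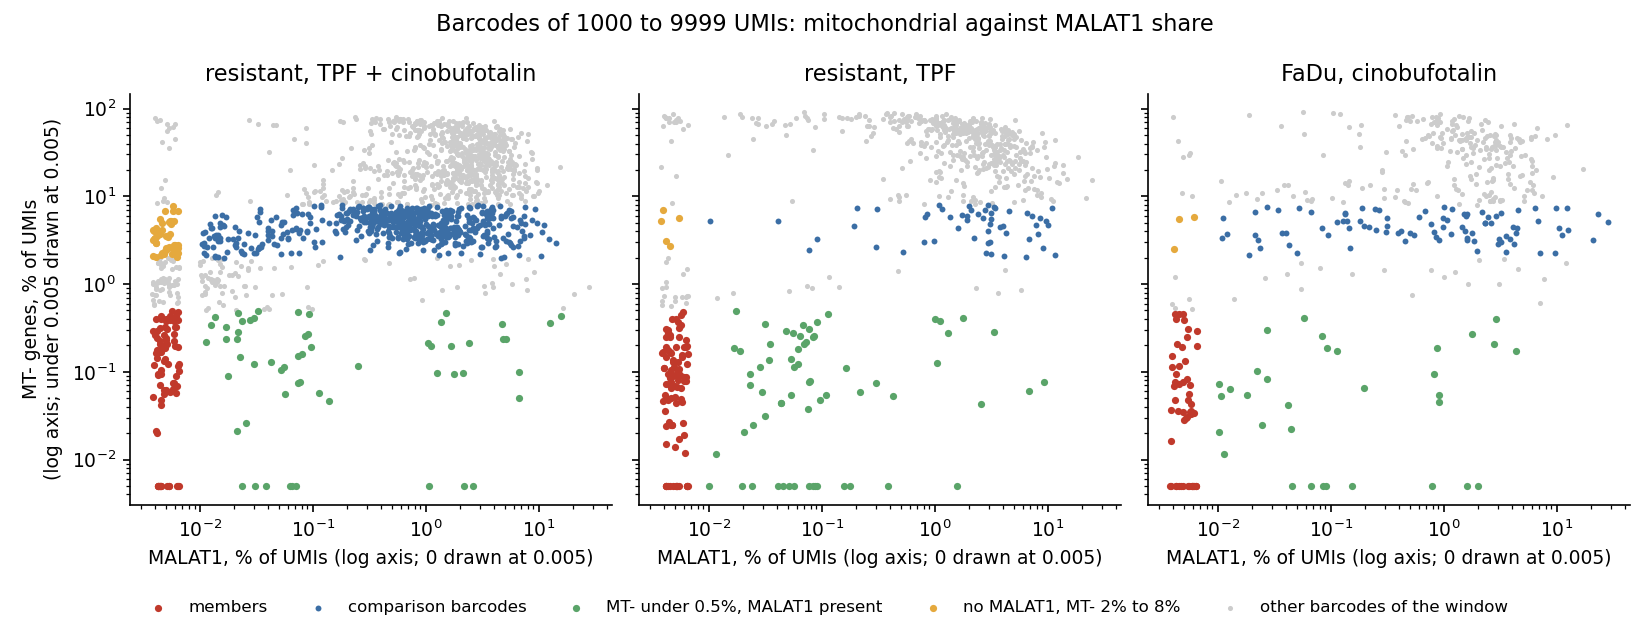
Share of UMIs from MT- genes (vertical, log axis) against the MALAT1 share (horizontal, log axis) for every barcode of at least 1000 and under 10000 UMIs, with 1 panel per library and 1 point per barcode. The 81, 94 and 52 members lie at 0 MALAT1 (drawn at 0.005 with sideways scatter) under 0.5% MT-, below and left of the comparison barcodes.

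Members made up 4.81% of the 1685 barcodes within the same limits on UMIs and genes in the resistant TPF cinobufotalin library (95% Clopper-Pearson interval 3.84% to 5.94%), 12.9% of 727 in the resistant TPF library (10.6% to 15.6%) and 11.6% of 450 in the FaDu cinobufotalin library (8.75% to 14.9%). Intervals cover counting error only. With 1 library per group, a treatment and a library cannot be told apart and nothing was tested between them. Of all deposited barcodes, members were 0.911%, 1.55% and 0.755%. The UMI window differed in its other contents: its median barcode held 6.82%, 26.5% and 9.39% MT- UMIs. Barcodes of the same kind went on below the window, with 38 of 397, 48 of 279 and 25 of 294 barcodes under 1000 UMIs having 0 MALAT1 UMIs and under 0.5% MT- UMIs.

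The members carried the RNA of the carcinoma line. All 11 squamous epithelial markers had UMIs in members, at a summed level of 5711, 6457 and 9986 UMIs per 1000000 (CPM) in the order of libraries above, against 5227, 5124 and 9996 CPM in comparison barcodes. Of 9 markers of red blood cells, which lack nuclei, only HBA1 had UMIs in members, 2, 5 and 1, and HBB, HBA2 and ALAS2 had none. Of 8 platelet markers only NRGN had any, 0, 1 and 1 UMI, and PPBP and PF4 had none. The 6 neutrophil markers had no UMI in members, 1 of 14 immune markers (CD68) and 1 of 10 fibroblast markers (COL1A1) had some, and PTPRC, CD3D, COL1A2 and COL3A1 were at 0. Of 9 endothelial markers 3 (ENG, EGFL7 and ERG) had UMIs, at a summed 39.3, 78.0 and 75 CPM in members and 90.6, 109 and 116 CPM in comparison barcodes, while PECAM1, CDH5 and VWF were at 0 in members.

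To find what else set the members apart, UMIs were summed per library and class and fitted with edgeR's quasi-likelihood test, with the library as a block. MT- genes and MALAT1 were left out of totals and tests. Genes were called at a Benjamini-Hochberg adjusted p under 0.05, and printed CPM are scaled by edgeR's TMM factors. The error of this fit is the spread of the class difference over 3 libraries of unlike line and drug, not over replicates of 1 condition. Of 4798 genes tested, 668 were higher in members (13.9% of those tested) and 867 lower (18.1%), with the median gene at a log2 fold change of 0.07. The lower side held most large differences, with 711 genes at least 2-fold lower (14.8%) against 109 at least 2-fold higher (2.27%). Without TMM factors 179 genes were higher and 1039 lower, so that 14.7% of calls were on the higher side in place of 43.5%, with the median gene at -0.16. Between classes, fewer molecules of 1 kind and more of all others cannot be told apart, since each sum is scaled to its total. The lower side was the steadier one: without the resistant TPF cinobufotalin library 225 genes were higher and 674 lower, and without the FaDu cinobufotalin library 285 were higher and 797 lower.

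NEAT1, which shares the nuclear location of MALAT1 but took no part in the rule, was nearly absent from members. It had 51.1, 11.1 and 23.1 CPM in members, against 2518, 3629 and 1775 CPM in comparison barcodes. These levels rest on 13, 4 and 4 UMIs in members and 7336, 1202 and 946 in comparison barcodes, and the classes do not overlap. The log2 fold change was -6.64 (SE 0.34, edgeR adjusted p = 1.4e-37). In every member of each library, 81, 94 and 52, the NEAT1 share of UMIs was under the median of that library's comparison barcodes. NEAT1 lies on chromosome 11, chr11:65422774-65445540 on the plus strand of GRCh38.

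The list of largely nuclear RNAs had 5 of 8 genes tested, NEAT1 among them, and the other 4 were lower in members too but far less so. The median log2 fold change of all 5 was -1.69, and 18.1% of all genes were lower. FTX, a noncoding RNA of the X inactivation centre, had 7.86, 0 and 0 CPM in members and 36.7, 54.4 and 31.9 CPM in comparison barcodes (log2 fold change -3.95, SE 0.77, edgeR adjusted p = 1.5e-05). PVT1, a long noncoding RNA, was at -1.69, with 62.9, 92.0 and 69.3 CPM in members and 217, 248 and 272 CPM in comparison barcodes. TUG1 and DLEU2 were each at -1.38. Among splicing regulators, proteins of the nuclear speckle whose messengers are in part retained in nuclei, 6 of 26 were lower and 0 higher by edgeR, with a median of -0.31, a count near the 18.1% of all genes that were lower. Among these were DDX17, TRA2A, HNRNPH1, SRSF6 and SRRM2, at log2 fold changes of -1.05, -0.99, -0.90, -0.87 and -0.56.

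The 12 genes lowest in members, under a rule that asked for a call, a mean of at least 20 CPM and 1 direction in all libraries, were NEAT1 and 11 protein-coding genes that each span more than 182 kb. The 11 had few or no UMIs in members, so they met that mean and edgeR's filter on low counts through the comparison barcodes. Their rank and spans are a description and no test. MYO16, a myosin gene that spans 611856 bases (chr13:108596152-109208007, plus strand), had 0 UMIs in members of every library, against 210, 53 and 17 UMIs in comparison barcodes. Against a floor of 3 counts over the members of all libraries it was at least 23.1-fold lower. TTC6, of 445596 bases, was at 0 in members too and at least 15.5-fold lower. ADARB2, an RNA editing enzyme homologue, had 1 UMI in members in all. ZSWIM6, which spans 213898 bases, was the best measured of them, with 7.86, 11.1 and 17.3 CPM in members and 233, 374 and 167 CPM in comparison barcodes (log2 fold change -4.56, SE 0.38, edgeR adjusted p = 1.5e-21). Among the others, ABTB2, ADAMTS17, FRMD5, LRBA, ATXN1 and THSD4, lay between -5.35 and -4.65, each with under 12 CPM in members of any library. No source used here says whether reads in introns were counted.

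Span was therefore examined over all 4661 tested protein-coding genes with a coding sequence in GENCODE 29, a grouping chosen after these values were seen. Tested genes had passed the same filter, which a gene could meet through 1 class alone. Genes in the lowest quartile of genomic span, under 12 kb, had a median log2 fold change of 0.43 with 343 higher and 50 lower of 1166. The 3 higher quartiles had medians of 0.24, -0.02 and -0.72, and in the longest 521 of 1165 genes were lower and 29 higher. In the highest decile, from 153 to 1217 kb, the median was -1.12 and 277 of 466 were lower against 4 higher. The medians of that decile were -1.03, -1.24 and -1.43 in the resistant TPF cinobufotalin, resistant TPF and FaDu cinobufotalin libraries. Across genes, which are not independent replicates, Spearman's rho of the log2 fold change was -0.531 with span and -0.529 with exonic length. Within the highest quartile of span, the medians by quartile of exonic length, from the lowest to the highest, were 0.17, -0.17, -0.58 and -0.95, the first from 33 genes. Within the lowest quartile of exonic length, the medians by quartile of span were 0.49, 0.49, 0.34 and 0.17, and within the highest 0.12, -0.06, -0.25 and -0.95, the first from 17 genes.

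Against comparison barcodes, the shortage of long genes was shared by nearly all members. The highest decile of span took a median of 2.18%, 2.40% and 1.81% of a member's UMIs, against 3.95%, 5.17% and 3.13% of a comparison barcode's, with MT- genes and MALAT1 left out. In 77 of 81, 94 of 94 and 51 of 52 members the share was under the median comparison barcode. Most deep barcodes with both were under it too, 3707 of 5304, 3606 of 3820 and 3230 of 3745, so this count is not particular to members. The median share in those deep barcodes was 3.47%, 3.34% and 2.30%. Some comparison barcodes were extreme in the other direction, with up to 19%, 15.2% and 17.6% in these genes and cytosolic ribosomal proteins as low as 0.941%, 1.13% and 1.20%. Against deep barcodes with both, a comparison added after seeing the data, NEAT1 was at -5.87, ZSWIM6 at -3.35 and the highest decile of span at a median of -0.60. In that comparison 3.69% of 4798 genes were higher in members and 7.63% lower.

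**Figure D2:**
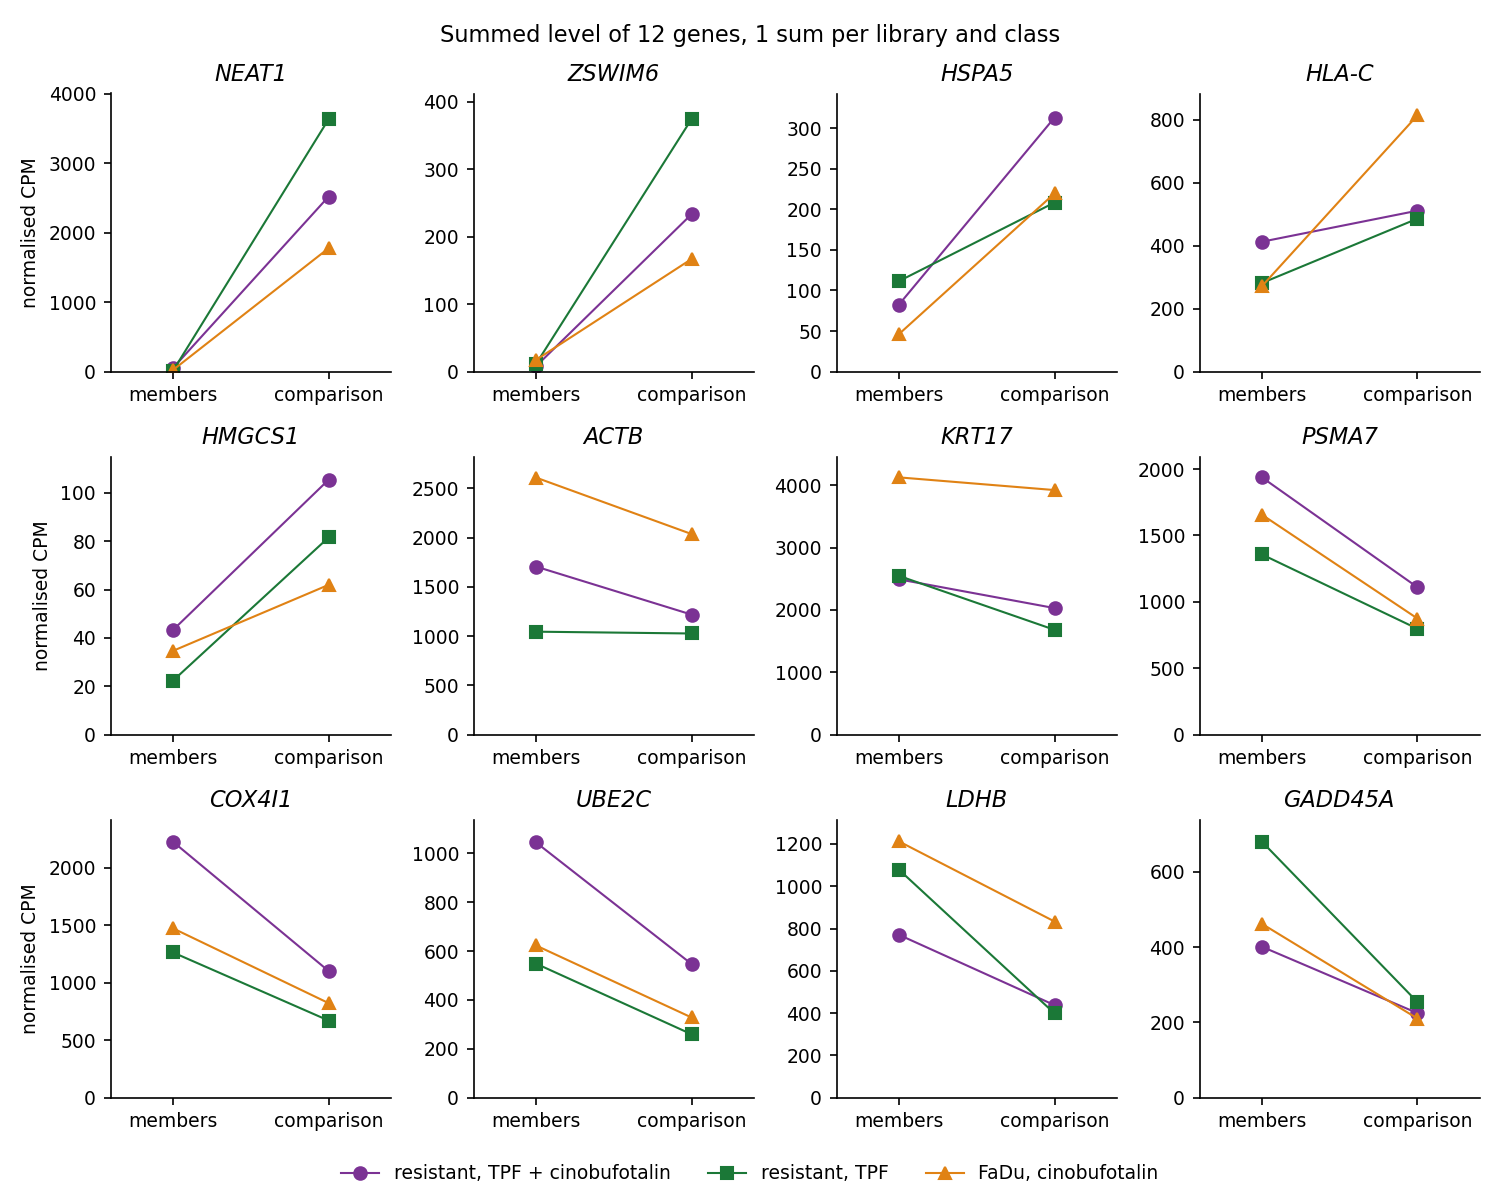
TMM-scaled CPM of 12 genes in the summed members (left) and comparison barcodes (right), with 1 point per library and class joined within a library, on linear axes from 0. NEAT1 and ZSWIM6 are near 0 in members of each library, whereas ACTB and KRT17 differ little between classes.

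Many messengers for secreted and membrane proteins were also lower in members. The sequences of a few genes are given as examples only, since the genes were picked by their fold changes in these data. They are the first 90 coding bases of the 3 lowest members of the secreted and cell surface list, from GENCODE 29 on GRCh38. The highest gene of the proteasome list and of the tubulin list stand beside them for contrast. ITGA2, CDH1 and CD44 also have longer genomic spans than PSMB3 and TUBG1. Capitals mark the 11 codons of the most hydrophobic window where its mean Kyte-Doolittle hydropathy, a scale of how far residues avoid water, was at least 2. PSMB3 and TUBG1 had no such window in their first 40 residues.
ITGA2: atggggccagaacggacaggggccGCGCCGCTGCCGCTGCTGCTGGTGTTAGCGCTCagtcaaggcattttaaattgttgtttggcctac
CDH1: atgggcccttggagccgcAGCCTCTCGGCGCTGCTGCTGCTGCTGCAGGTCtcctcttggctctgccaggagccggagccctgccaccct
CD44: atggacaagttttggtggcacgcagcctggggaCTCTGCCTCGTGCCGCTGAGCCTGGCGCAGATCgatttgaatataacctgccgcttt
PSMB3: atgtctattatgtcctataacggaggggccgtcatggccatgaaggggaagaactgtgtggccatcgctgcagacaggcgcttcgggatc
TUBG1: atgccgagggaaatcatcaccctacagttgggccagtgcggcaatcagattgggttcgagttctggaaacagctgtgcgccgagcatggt

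Of 39 tested genes of the secreted and cell surface list, 24 were lower in members and 0 higher by edgeR, where 18.1% of all genes were lower, with a median log2 fold change of -1.11. The list was not set against genes of like length. Protein-coding genes in the highest quartile of span were at a median of -0.72, and those also in the highest quartile of exonic length at -0.95. The genes named from this list were chosen after their values were seen, apart from AREG, CD9, CD63 and PLAU. ITGA2, an integrin chain that binds collagen (chr5:52989326-53094779, plus strand), had 11.8, 5.57 and 5.77 CPM in members, against 88.5, 109 and 61.9 CPM in comparison barcodes (log2 fold change -3.53, SE 0.47, edgeR adjusted p = 1.8e-10). CDH1, the adhesion protein E-cadherin (chr16:68737225-68835548, plus strand), had 74.7, 19.5 and 0 CPM in members and 239, 275 and 158 CPM in comparison barcodes. CD44, the hyaluronan receptor (chr11:35138870-35232402, plus strand), had 27.5, 39.0 and 23.1 CPM in members and 174, 181 and 212 CPM in comparison barcodes. The classes do not overlap for any of these genes.

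Of the other lower genes of that list, LAMB3, a laminin chain of the basement membrane, was at -1.52. Integrin chains ITGA6, ITGA3 and ITGB1 were at -2.18, -1.87 and -1.48, and the matrix protein THBS1 was at -2.26. The complement regulators CD46 and CD55 were at -2.03 and -1.81, and PLAUR, the urokinase receptor, was at -1.26. Not every member of the list was called: AREG, a secreted growth factor, had 1922, 608 and 1397 CPM in members and 1565, 1458 and 1743 CPM in comparison barcodes (log2 fold change -0.41, edgeR adjusted p = 0.16). The tetraspanins CD9 and CD63 were at -0.53 and 0.08, and neither passed. Per barcode, the list took a median of 0.450%, 0.479% and 0.382% of a member's UMIs and 0.818%, 0.830% and 0.926% of a comparison barcode's, and 74 of 81, 84 of 94 and 50 of 52 members were under the comparison median.

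The lower call of this list held under each scaling and depth tried, with 29 lower of 39 without TMM factors, 14 of 22 with every barcode thinned to 1000 UMIs, 12 of 22 with both classes held under 5000 UMIs, and 17 of 39 against deep barcodes with both. Of all genes, 1039 of 4798, 159 of 1535, 222 of 2064 and 366 of 4798 were lower in the same settings. No alternative called any of its genes higher.

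Several ER chaperones were lower in members, while the ER list as a whole had calls in both directions. HSPA5, the main Hsp70 chaperone of the ER, had 82.5, 111 and 46.2 CPM in members, against 313, 208 and 220 CPM in comparison barcodes (log2 fold change -1.58, SE 0.26, edgeR adjusted p = 3.8e-07). Of the 21 tested genes of the ER list 7 were lower and 3 higher, against 18.1% and 13.9% of all genes, with a median of -0.31. SEL1L, a subunit of the complex that removes misfolded ER proteins, was at -2.75. HYOU1, PDIA4, HSP90B1, PDIA3 and CANX, all folding factors of the ER, were at -1.53, -1.46, -1.3, -1.17 and -1.06. The 3 higher genes, SSR4, SEC61B and SEC61G at 0.55, 0.59 and 0.70, code for small membrane subunits of the translocation machinery. None of the 3 was called without the FaDu cinobufotalin library, without the resistant TPF cinobufotalin library, or without TMM factors.

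Of 10 tested genes of the cholesterol synthesis list, 5 were lower and 0 higher by edgeR, with a median of -1.21. Of all genes 18.1% were lower. HMGCS1, an early enzyme of the pathway, had 43.2, 22.3 and 34.6 CPM in members and 105, 81.5 and 61.9 CPM in comparison barcodes (log2 fold change -1.36, SE 0.34, edgeR adjusted p = 0.001). SREBF2, the transcription factor of the pathway, was at -1.96, and the enzyme SQLE was at -1.20. FDPS and EBP, at 0.39 and 0.38, did not pass.

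Among 14 genes of class I antigen presentation 8 were lower and 1 higher, against 18.1% and 13.9% of all genes. The median was -0.59, and the FaDu cinobufotalin library set much of this. HLA-C had 413, 281 and 271 CPM in members and 511, 486 and 814 CPM in comparison barcodes, at a log2 fold change of -0.86. The median over the list was -0.32 and -0.23 in the resistant TPF cinobufotalin and resistant TPF libraries and -1.38 in the FaDu cinobufotalin library. Without that library 2 of the 14 were lower, as were 797 of 5212 of all genes. Against deep barcodes with both, no gene of the list was called in either direction by edgeR. There 177 of all genes were higher and 366 lower at the same threshold, and 1339 had an unadjusted p under 0.05.

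Genes that code for a strongly hydrophobic N-terminus lay below other genes in each quartile of span. Hydropathy as a graded measure did not follow the difference: across genes, Spearman's rho of the log2 fold change with it was -0.0151. Of the 4661 protein-coding genes, 589 coded for a window of 11 residues with a mean hydropathy of at least 2 in the first 40. Their median log2 fold change was -0.32, with 184 lower and 45 higher, against 0.11 for the 4072 genes without it, with 643 lower and 601 higher. In quartiles of genes by span, from the lowest to the highest, the medians were 0.12, -0.16, -0.58 and -1.18 with the window and 0.46, 0.28, 0.03 and -0.65 without it. The order held in each library and against deep barcodes with both, where the 2 medians were -0.37 and 0.07 over all spans. Genes with the window in the lowest quartile of span were not lower as a set, with 31 higher and 22 lower of 174. The grouping was chosen after the data were seen and carries no test.

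**Figure D3:**
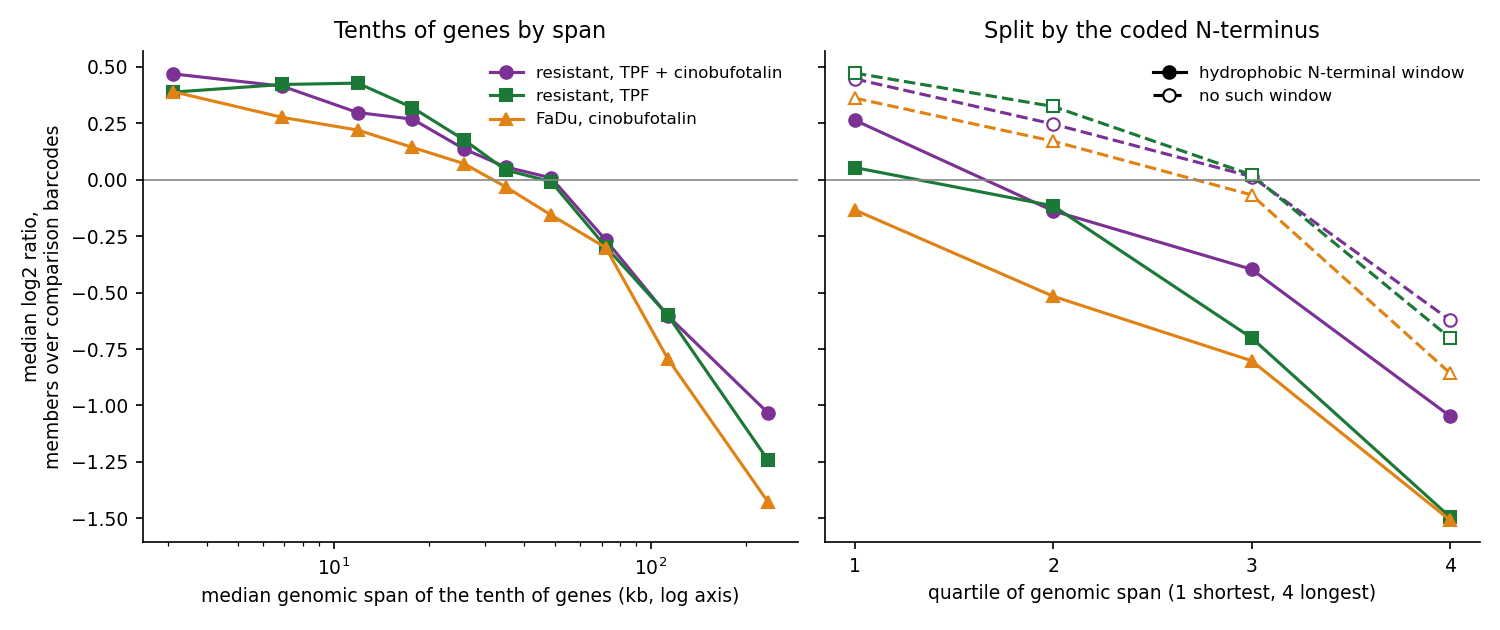
Median log2 ratio of members over comparison barcodes in each library, for deciles of 4661 protein-coding genes by genomic span (left, log axis in kb) and for quartiles by span split by a hydrophobic window in the coded N-terminus (right; filled with, open without). In every library the median is lowest in the highest decile, and genes with the window lie below those without it in each quartile.

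The lists with the most genes higher in members code for cytosolic proteins and for proteins imported into mitochondria, and their differences were smaller. They were not set against genes of like length, and short genes were often higher. In the lowest quartile of span 29.4% were higher, at a median log2 fold change of 0.43. Of those also in the lowest quartile of exonic length 34.0% were, at 0.49. Among cytosolic ribosomal proteins 61 of 81 were higher and 0 lower by edgeR, where 13.9% of all genes were higher, with a median log2 fold change of 0.76. RPL37A, of the large subunit, had 2476, 599 and 1668 CPM in members and 817, 408 and 593 CPM in comparison barcodes (log2 fold change 1.24, SE 0.22, edgeR adjusted p = 2.3e-06). RPS12, at 0.30, did not pass, and it was lower in members of the resistant TPF library, with 4738 CPM against 6758 CPM. Reads of ribosomal protein genes can be split with near-identical pseudogenes, so values of single genes are uncertain.

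The ribosomal protein list had a median log2 ratio of 1.10, 0.55 and 0.60 in the resistant TPF cinobufotalin, resistant TPF and FaDu cinobufotalin libraries. Among members, the share of ribosomal protein UMIs rose most with depth in 1 of these. In the resistant TPF cinobufotalin library, members of at least 5000 UMIs had a median of 34.5% ribosomal protein UMIs, with 19 of 21 at 20% or more, against 14.1% in members under 2000 UMIs. Among FaDu cinobufotalin members the 2 medians were 18.8% and 17.6%, and in the resistant TPF library 16.6% and 13.9%. With both classes held under 5000 UMIs, 6 of 80 ribosomal protein genes were higher, at a median of 0.26, and with barcodes thinned to 1000 UMIs 21 of 80 were. Of all genes tested, 37 of 2064 and 52 of 1535 were higher there. Without the resistant TPF cinobufotalin library 26 of 81 were higher, without the FaDu cinobufotalin library 32, and against deep barcodes with both 4. Those settings had 225 of 4910, 285 of 5212 and 177 of 4798 of all genes higher. Per barcode, with MT- genes and MALAT1 kept in the total, the median share of ribosomal protein UMIs in members exceeded that in comparison barcodes by 3.63, 4.60 and 1.91 percentage points. The mean of these differences was 3.38 points (SD 1.36, n = 3), for which an exact two-sided sign permutation test gave p = 0.25, the smallest that 3 libraries allow. Part of them is set by the rule, which removes MT- and MALAT1 UMIs from members. With those genes left out of the total, the medians were 16.4%, 14.3% and 17.9% in members. In comparison barcodes they were 13.5%, 10.4% and 17.6%.

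**Figure D4:**
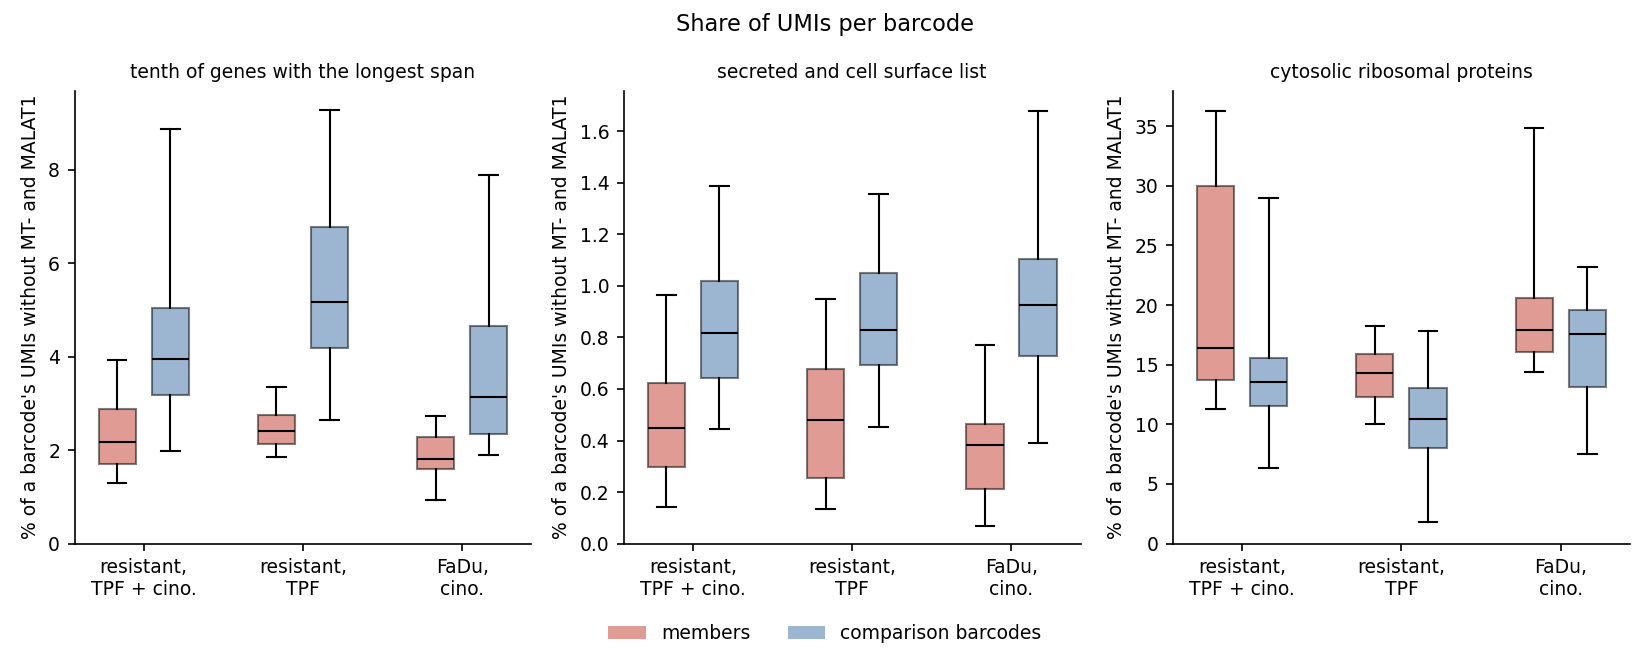
Percent of each barcode's UMIs, without MT- genes and MALAT1, from the highest decile of genes by span, from the secreted and cell surface list and from cytosolic ribosomal proteins, in members (left box of each pair) and comparison barcodes (right box). Boxes show the quartiles and whiskers the 5th to 95th percentile. Members lie lower for the first 2 measures in each library, and the ribosomal boxes overlap.

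Nuclear-encoded mitochondrial genes were not low where mitochondrial transcripts were missing. Of 47 nuclear-encoded genes of the respiratory chain and ATP synthase, 32 were higher and 0 lower by edgeR, with a median of 0.69, and of 31 mitochondrial ribosome genes 19 were higher and 0 lower, with a median of 0.64. Of all genes 13.9% were higher. COX4I1, a subunit of cytochrome c oxidase, had 2225, 1262 and 1472 CPM in members and 1101, 670 and 822 CPM in comparison barcodes (log2 fold change 0.92, SE 0.22, edgeR adjusted p = 0.00038). MT-CO2, a subunit of the same enzyme coded in the mitochondrion and used by the rule, made up 0.065%, 0.019% and 0.020% of members' UMIs and 1.14%, 1.14% and 1.46% of those of comparison barcodes. The higher calls were few with both classes held under 5000 UMIs, at 2 of 47 and 0 of 28, and against deep barcodes with both, at 2 of 47 and 2 of 31. Higher calls were few over all genes there too, at 37 of 2064 and 177 of 4798. Without the resistant TPF cinobufotalin library they were 8 of 47 and 4 of 31, and 225 of 4910 over all genes. Without the FaDu cinobufotalin library they were 10 and 5, and 285 of 5212 over all genes. Without TMM factors they were 15 of 47 and 5 of 31, and 179 of 4798 over all genes. Per barcode, without MT- genes and MALAT1, respiratory chain genes took a median of 2.71%, 2.08% and 2.68% of a member's UMIs. In comparison barcodes the medians were 2.28%, 1.75% and 2.18%. No alternative called a gene of either list lower.

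Proteasome subunits, which are cytosolic, had 16 of 32 genes higher and 0 lower by edgeR, where 13.9% of all genes were higher, with a median of 0.56. PSMB3, a subunit of the core particle (chr17:38752736-38764231, plus strand), had 692, 569 and 843 CPM in members and 351, 169 and 482 CPM in comparison barcodes (log2 fold change 1.14, SE 0.22, edgeR adjusted p = 7.6e-06), and was also higher against deep barcodes with both, at 0.77. TUBG1, the tubulin that nucleates microtubules, had 145, 125 and 139 CPM in members and 71.4, 57.4 and 65.7 CPM in comparison barcodes, and 5 of 9 tubulins were higher. The proteasome count was 3 of 31 and the tubulin count 0 of 7 with both classes held under 5000 UMIs, where the tubulin median was -0.03. Without TMM factors they were 4 of 32 and 1 of 9. Of all genes, 37 of 2064 were higher under 5000 UMIs and 179 of 4798 without TMM factors. Spliced host genes of small nucleolar RNAs, whose mature transcripts leave the nucleus, had 6 of 11 higher, led by GAS5 at 1.22, and 1 of 7 in the narrower window.

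Several abundant cytoplasmic messengers did not pass the test in either direction. ACTB, the beta chain of actin, had 1706, 1045 and 2609 CPM in members and 1218, 1027 and 2036 CPM in comparison barcodes (log2 fold change 0.29, SE 0.22, edgeR adjusted p = 0.32). GAPDH, EEF1A1, TMSB10, KRT17, KRT18 and FTH1 lay between -0.31 and 0.43, and none passed. In the keratin and squamous list 5 of 16 genes were lower and 1 higher, against 18.1% and 13.9% of all genes. The lower ones were not keratins: the desmosome genes DSP, DSG2 and JUP, the membrane protein PERP and the transcription factor TP63, which were at -1.45, -1.39, -0.66, -0.92 and -1.52. KRT7, at 0.68, was higher.

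**Figure D5:**
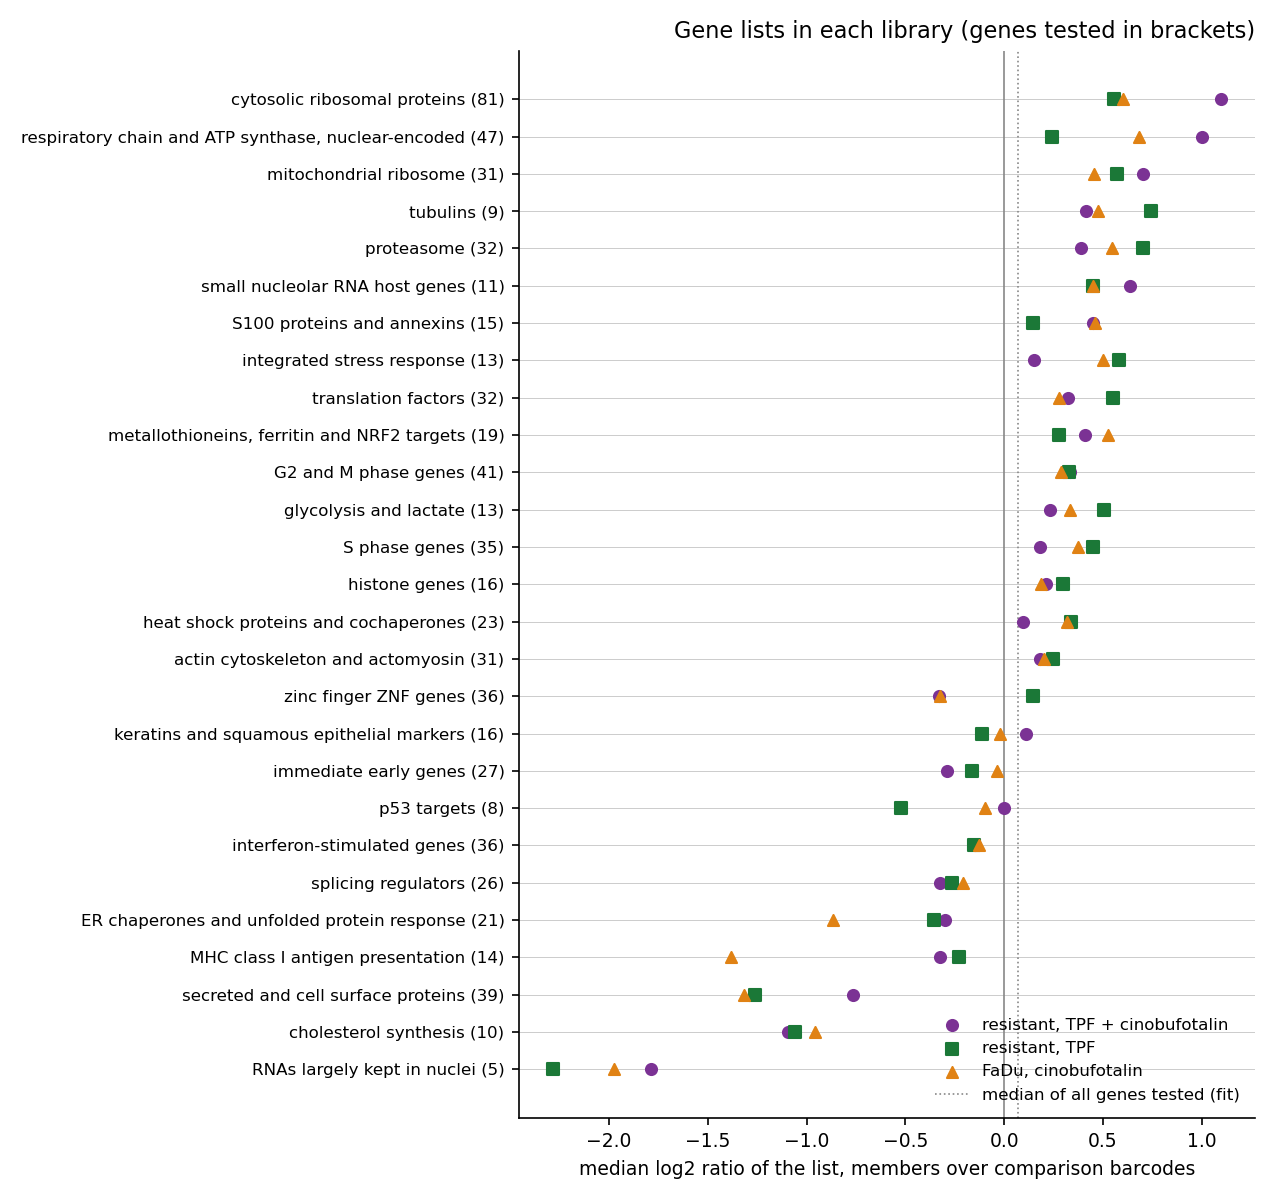
Median log2 ratio of members over comparison barcodes (horizontal) for each gene list (vertical, with the number of genes tested in brackets), with 1 point per library; the dotted line is the median of all genes tested. The nuclear RNA, secreted and cell surface and cholesterol lists lie left of 0 in every library, and the ribosomal, respiratory chain and proteasome lists right of 0.

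Stress and immediate early genes had calls in both directions, where 13.9% of all genes were higher and 18.1% lower. GADD45A, a DNA damage response gene, had 401, 680 and 462 CPM in members and 224, 254 and 210 CPM in comparison barcodes (log2 fold change 1.12, SE 0.21, edgeR adjusted p = 9.6e-06), and was at 1.20 against deep barcodes with both. In the immediate early list 2 of 27 genes were higher and 4 lower, both below those shares, with a median of -0.20. Of 8 p53 targets 2 were lower and 0 higher by edgeR, a count too small to set apart from those shares. FOS, an immediate early transcription factor, was at 0.92, with 743, 886 and 508 CPM in members and 455, 513 and 201 CPM in comparison barcodes. Of 13 genes of the integrated stress response 5 were higher and 2 lower; ATF4, its central transcription factor, was at -0.07 and did not pass, and DDIT4 was at 1.03. SLC7A11, a cystine transporter of the cell membrane that is listed there too, was at -2.64. In the interferon list 4 of 36 were higher and 5 lower, near or below the 13.9% and 18.1% of all genes, with a median of -0.24; IFITM3, a small membrane protein, had 2582, 1132 and 3042 CPM in members and 973, 652 and 1126 CPM in comparison barcodes, at 1.22. MT2A, a metallothionein of the nuclear genome, was at 0.99, one of 7 higher and 3 lower of 19 in its list.

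Cell cycle lists had calls in both directions. In the G2 and M phase list, 8 of 41 tested were higher and 4 lower, and in the S phase list 3 of 35 were higher and 1 lower, against 13.9% higher and 18.1% lower of all genes. UBE2C, a ubiquitin-conjugating enzyme of mitosis, had 1046, 549 and 623 CPM in members and 547, 260 and 328 CPM in comparison barcodes, at 0.98, whereas MKI67, a long messenger of cycling cells, had 66.8, 64.1 and 23.1 CPM in members and 79.3, 142 and 65.7 CPM in comparison barcodes, at -0.84 and with overlap between the classes across libraries. With both classes held under 5000 UMIs 0 were higher and 3 of 21 lower, and the list median was -0.35 in place of 0.37. Of 2064 genes tested there, 37 were higher and 222 lower.

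The genes with the largest rise under the same naming rule reached lower values than the falls. S100A9, a calcium-binding protein, led at 2.26, but 20 of its 37 UMIs in FaDu cinobufotalin members came from 1 of 3 barcodes that had it, and 10 of 12 in resistant TPF members from 1. UXT, a small cofactor of transcription and folding complexes, had 318, 117 and 271 CPM in members and 120, 42.3 and 75.1 CPM in comparison barcodes (log2 fold change 1.56, SE 0.25, edgeR adjusted p = 9.5e-08). COQ5 (ubiquinone synthesis), RPA2 (single-stranded DNA binding), RUVBL1 (an ATPase of chromatin remodelling), MRPL2 (mitochondrial ribosome), EXOSC1 (the RNA exosome), SCNM1 (splicing), MOB4 and TMEM256 lay between 1.30 and 1.55. BOLA2B, at 1.79, has a near-identical copy, and DGUOK-AS1, at 1.37, lies antisense to other transcripts, so both are uncertain.

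Thinned to 1000 UMIs, members had a median of 666, 708.5 and 633 genes, against 704, 702.5 and 631 in comparison barcodes. The difference was -38, 6 and 2 genes (exact two-sided sign permutation test over libraries, p = 1; the smallest possible is 0.25). With MT- genes and MALAT1 left out the difference was -60, -36.5 and -21 genes (p = 0.25 by the same exact test), so members had fewer genes in each library. In the resistant TPF cinobufotalin library the lower quartile, with all genes kept, was 531 genes in members and 666 in comparison barcodes.

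Barcodes poor in mitochondrial RNA with at least 1 MALAT1 UMI lay near the members in several measures, with fewer genes called. There were 58, 65 and 33 barcodes of the window with under 0.5% MT- UMIs and at least 1 MALAT1 UMI, of which 28, 39 and 14 had a lone MALAT1 UMI. Their median MALAT1 share was 0.0748%, 0.0695% and 0.0864%, against 0.697%, 2.89% and 0.947% in comparison barcodes, and their median NEAT1 share was 0.0055%, 0% and 0%. Against the same comparison barcodes 26 of 4089 genes were higher (0.636%) and 93 lower (2.27%). Those counts rested on single libraries: without the FaDu cinobufotalin library edgeR called 0 genes in either direction, with 516 at an unadjusted p under 0.05, and without the resistant TPF cinobufotalin library 158 were higher and 437 lower. NEAT1 was at -2.22 in them and at -6.64 in members, ZSWIM6 at -1.68 and -4.56, and HSPA5 at -1.56 and -1.58, each against the shared comparison barcodes. The secreted and cell surface list had a median of -0.91 in them, with 6 of 37 lower, and genes with the hydrophobic window were at -0.38. Per barcode that list took a median of 0.504%, 0.524% and 0.445% in them, against 0.450%, 0.479% and 0.382% in members, and the highest decile of span took 2.78%, 2.64% and 2.10%, against 2.18%, 2.40% and 1.81% in members. Barcodes without MALAT1 but with 2% to 8% MT- UMIs numbered 46, 5 and 3 and were not fitted, since fewer than 10 were left in both other libraries.

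Deep barcodes with at least 10000 UMIs that lacked both RNAs numbered 53, 6 and 115, and those of the resistant TPF cinobufotalin and FaDu cinobufotalin libraries were set against members. Over these 2 libraries 230 of 5221 genes were higher in members (4.41%) and 301 lower (5.77%). Respiratory chain genes had 1 of 47 higher in members and 25 lower, and cytosolic ribosomal proteins 1 of 81 higher and 18 lower. Ribosomal protein UMIs took a median of 16.4% and 17.9% in members of the 2 libraries and 30.4% and 23.1% in the deep barcodes. The highest decile of span was at a median of 0.05 and the lowest at -0.31. Per barcode the highest decile took 2.18% and 1.81% in members and 1.56% and 1.53% in the deep barcodes. The secreted and cell surface list was at -0.62, with 10 of 37 lower in members. These counts depended on the scaling and the tool, with 630 higher and 53 lower without TMM factors and 11 higher and 32 lower by DESeq2.

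Between libraries, members differed more than comparison barcodes did. The members' summed UMIs were fewer in the resistant TPF cinobufotalin and FaDu cinobufotalin libraries and about equal in the resistant TPF library. At least a 2-fold difference on the log2(CPM + 5) scale was seen between members of the resistant TPF cinobufotalin and resistant TPF libraries in 560 genes higher (11.7% of 4795) and 291 lower (6.07%), against 92 (1.92%) and 33 (0.688%) between comparison barcodes. Respiratory chain genes were at a median of 1.49 in members, with 36 of 47 at least 2-fold higher in the resistant TPF cinobufotalin library. In comparison barcodes they were at 0.71, with 11. Cytosolic ribosomal proteins were at 1.06 and 0.53. These ratios are of summed UMIs, scaled by TMM factors of 0.802 and 1.12 in members. Per barcode, without MT- genes and MALAT1, respiratory chain genes took a median of 2.71% and 2.08% of a member's UMIs. The upper quartiles were 5.39% and 2.47%. Ribosomal protein medians were 16.4% and 14.3%. Between the resistant TPF cinobufotalin and FaDu cinobufotalin libraries 13% of members' genes lay at least 2-fold above and 6.19% below, against 2.71% and 2.57% in comparison barcodes. Between the resistant TPF and FaDu cinobufotalin libraries the shares were 12.6% and 7.86% in members, against 6.28% and 4.67% in comparison barcodes. With 1 library each, no test was made.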

How the data were processed

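Single-cell RNA was captured with 10x Genomics chemistry after erythrocyte lysis and a check of viability, per the labels' protocols. The authors made the deposited counts of UMIs per gene and barcode with Cell Ranger 7.0 on hg38, per the submitters' processing notes. No source used here states the annotation, the strand or whether intronic reads were counted. All 58735 feature IDs matched GENCODE 29, which gave gene types, spans and coding sequences.

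UMIs were summed per library and class. The sums were fitted with edgeR 4.0.16 in R 4.3.3 (TMM, filterByExpr, library and class as terms, robust quasi-likelihood), adjusted over all genes tested. SE is the log2 fold change over the root of F. Shares have Clopper-Pearson intervals (95%). A library with under 10 barcodes of a class stayed out of a fit, so the fit to deep barcodes lacking both had 2 libraries. Python 3.11.15, numpy 2.4.6, scipy 1.17.1, pandas 2.3.3 and matplotlib 3.10.9 were used. Doublets were not called, and free RNA was not corrected for.

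The members, 27 gene lists and 7 marker lists were chosen with earlier results of these data known. Named genes were the 12 highest and 12 lowest called with a mean of at least 20 CPM and 1 direction in 3 libraries, leaving out MT-, ribosomal protein and clone-named genes and MALAT1, up to 4 genes of each list by mean CPM, and ACTB, GAPDH, EEF1A1, NEAT1, KRT17, KRT18, FTH1, TMSB10, HSPA5, ATF4, TXNIP and MKI67. Other named genes were chosen after their values were seen. TXNIP was at a log2 fold change of 0.55 and did not pass.

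Alternatives were DESeq2 1.42.0, no TMM factors, other filters, no library block, MT- genes and MALAT1 kept in totals, thinning, matched depth, other limits of the rule and leaving out each library. Chosen after seeing the data were deep barcodes with both, the window under 5000 UMIs and the groupings by span and hydropathy. On simulated counts for 4498 genes the fit recovered 38 of 50 genes raised 2-fold, 22 of 44 lowered 2-fold, 50 of 50 raised and 43 of 44 lowered by 2 on the log2 scale, and called 4 of 4310 unchanged genes.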

Additional observations from a re-analysis of the deposited data

Results flagged for a closer look

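For 1 list median and 5 named genes the difference between members and comparison barcodes had opposite signs with and without cinobufotalin, which was not tested, since 1 library lacked it and the libraries differ in line too. These are 6 sign splits among 27 lists and 134 named genes.

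SNHG5, a host gene of small nucleolar RNAs, was at 1.19 and 1.17 on the log2 scale in the resistant TPF cinobufotalin and FaDu cinobufotalin libraries and at -0.33 in the resistant TPF library. SSR4, a subunit beside the ER translocation channel, was at 1.23 and 0.53 with cinobufotalin and -0.35 without. SEC61B, a subunit of that channel, was at 0.85 and 0.92 with it and -0.0605 without. MRPL41, of the mitochondrial ribosome, was at 0.96 and 0.96 with it and -0.0626 without. ATP5F1E, the epsilon subunit of ATP synthase, was at 1.26 and 1.00 with it and -0.33 without. The median of the zinc finger ZNF genes was -0.33 and -0.33 with it and 0.15 without.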

How the results depend on the processing

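Genes higher in members numbered 668, but 179 without TMM factors, 418 with no filter, 258 at a mean of at least 50 CPM, 64 with no replicate block, 52 with barcodes thinned to 1000 UMIs, 377 with matched depth, 37 with the window under 5000 UMIs, 345 with comparison MT- at 3% to 6%, 205 by DESeq2 and 177 against deep barcodes with both. Genes lower, 867 in all, numbered 530 with no replicate block, 159 thinned, 222 under 5000 UMIs, 404 by DESeq2 and 366 against deep barcodes with both. Leaving out 1 library each gave 225 to 610 higher and 674 to 863 lower. Thinning and the narrower window tested 1535 and 2064 genes. The fit pairs both classes within a library, so the replicate block is the library. Mitochondrial-poor barcodes with MALAT1 gave 16 higher and 38 lower genes by DESeq2, 285 lower without TMM factors, and 0 to 158 higher and 0 to 437 lower on leaving out 1 library each. Members over deep barcodes lacking both gave 630 higher and 53 lower without TMM factors, and 11 and 32 by DESeq2.

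List medians that had 1 sign in all libraries and exceeded the SD of the library medians changed sign as follows: heat shock at -0.14 thinned and -0.16 under 5000 UMIs, actin -0.10 thinned, tubulins -0.0345 and S phase -0.11 under 5000 UMIs, G2 and M -0.0839 thinned and -0.35 under 5000 UMIs, histones -0.0186 with no filter, -0.0147 thinned and -0.0126 under 5000 UMIs, and, against deep barcodes with both, interferon 0.15 and metallothionein, ferritin and NRF2 genes -0.00091. Medians that did not meet that bar changed sign too, among them p53 targets at 0.21 under 5000 UMIs, keratins at 0.14 at 50 CPM and zinc finger genes at -0.57 with matched depth and -0.62 under 5000 UMIs. Genes that changed sign were, under 5000 UMIs, HSPE1 at -0.16, TUBB (ENSG00000196230) -0.0561, SNHG5 -0.29, SSR4 -0.48, TUBA1B -0.0345 and HSP90AA1 (ENSG00000080824) -0.0329; thinned, HSPE1 -0.11 and SSR4 -0.21; against deep barcodes with both, CKS1B -0.0537 and SNHG7 -0.29. The cause was not tested.

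The share of members in the resistant TPF cinobufotalin window was 3.44% with MT- under 0.25%, 6.17% under 1%, 6.94% with MALAT1 under 0.1%, 3.46% from 2000 UMIs and 5.98% under 5000 UMIs. In the resistant TPF and FaDu cinobufotalin libraries it was 19.3% and 15.8% with MALAT1 under 0.1%, and 9.61% and 8.42% from 2000 UMIs. The mean difference in genes per barcode, -10 at 1000 UMIs, was -83 at 2000 UMIs and -39.2 without MT- genes and MALAT1, where the share of the 50 top genes differed by 2.1 percentage points in place of -1.63. Few UMIs in members limit low genes.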
